A study of Mus musculus with 4 samples.

Results

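The genes described here are 39 interferon-stimulated genes, read in Nf2-null mouse Schwann cells that had or had not been exposed to NXD30001, an inhibitor of the chaperone HSP90. A gene was taken from the row of the 2 deposited gene tables whose symbol equals a listed one, and counted as measured in a table where its estimate had status OK and at least 1 FPKM in either library. FPKM scales fragments to transcript length and to all mapped fragments of a library, so levels of different genes can be set beside each other. Of the 39 symbols, 38 had a row among the 35604 rows of each table. All 38 were measured in the tumours, where 15550 genes were compared, and 22 of them in culture, where 12676 were.

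Libraries were 4, with 1 in each of 4 groups. ESC-FC1801 descends from Schwann cells of an FVB/N mouse embryo with both Nf2 alleles floxed, and adenoviral Cre removed that gene, which encodes the tumour suppressor merlin, in culture. All 4 groups carry that deletion. The line was grown without serum, with neuregulin-β1 and forskolin in the medium, and the exposure was to DMSO or NXD30001 at 1 µM over 24 h. Mice with an ESC-FC1801 tumour received vehicle or 100 mg/kg NXD30001 by a schedule of 3 doses a week for 4 weeks. A tumour piece holds host cells with an intact Nf2 gene beside the grafted line. No source used here gives the age of the mice.

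Interferons are secreted proteins that cells release on sensing viral nucleic acid or damage. Type I interferons act through the receptor Ifnar1/Ifnar2 and the kinases Jak1 and Tyk2, which activate a complex with Stat2 and Irf9 that binds the interferon-stimulated response element (ISRE). Interferon gamma acts through Ifngr1/Ifngr2, Jak1 and Jak2, and its signal reaches genes at the gamma-activated site (GAS). The target genes encode sensors of foreign RNA, enzymes that degrade or modify it, factors that block viral assembly, the ubiquitin-like protein ISG15, and GTPases that attack vacuoles with microbes.

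Stretches of promoter are printed here to show the elements through which such genes are known to be read. RefSeq promoter windows (build GRCm38.p6) were matched by symbol for 30 of the 39 genes. The windows of Dhx58, Mx1, Mx2, Oas2, Parp9, Parp14, Rtp4, Usp18 and Zbp1 had no match. The 250 bases before each gene start were searched for the letters TTTCNNTTTC on both strands (GAAANNGAAA on the strand of the gene) as the ISRE core, and for TTCNNNGAA, which reads the same on both strands, as the GAS core. Matches were allowed to overlap. The ISRE letters stood before 13 of the 30 genes (43.3%), against 3.46% of all 27025 genes with a window, and the GAS letters before 8 (26.7%), against 8.13%. In Bst2 a GAS match overlaps an ISRE match. A match is a description of letters and not a binding site. The stretches run 5′ to 3′ on the strand of the gene, with the matched letters in capitals, for genes whose levels are given below.
Isg15 (chr4:156200860-156200911, minus strand): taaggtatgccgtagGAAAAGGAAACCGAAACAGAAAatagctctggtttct
Ifit1 (chr19:34640770-34640828, plus strand): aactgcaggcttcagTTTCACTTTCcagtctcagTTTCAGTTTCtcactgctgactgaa
Ifit3 (chr19:34583358-34583431, plus strand): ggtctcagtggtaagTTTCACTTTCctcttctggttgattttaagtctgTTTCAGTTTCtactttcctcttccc
Rsad2 (chr12:26456548-26456587, minus strand): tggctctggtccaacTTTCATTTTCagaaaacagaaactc
Oas1a (chr5:120907526-120907560, minus strand): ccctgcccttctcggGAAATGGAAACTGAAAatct
Igtp (chr11:58199507-58199546, plus strand): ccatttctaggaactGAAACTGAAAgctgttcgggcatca
Irgm2 (chr11:58214898-58214937, plus strand): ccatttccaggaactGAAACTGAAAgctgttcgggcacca
Irf1 (chr11:53769909-53769947, plus strand): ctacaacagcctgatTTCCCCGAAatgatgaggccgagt

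Isg15 holds 3 overlapping ISRE matches, Ifit1 and Ifit3 hold 2 separate ones, and the capitals of Irf1 are a GAS match with no ISRE match in its windows. The stretches of Igtp and Irgm2 differ at 2 of 40 positions, and each holds a GAS match just before the capitals. All of these genes but Irf1 thus carry the ISRE letters close to the gene start.

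Values are given for each library as FPKM, and a log2 difference is log2(FPKM + 1) in the treated library less the untreated value, a scale on which low genes appear closer than their ratio. Since each group is a single library, replicate error is missing, no test was run, and "higher" and "lower" compare individual libraries. The statistic in the authors' deposited table gives an implied error of each log2 ratio, which covers no spread between animals or cultures. Its median over the measured members was 0.38 in tumours and 0.82 in culture. Judged from the lowest genes, the treated library was 1.05 times as deep as the untreated one in culture (40 genes) and 1.19 times in tumours (56 genes). The Schwann markers Sox10, Erbb3 and Ngfr were above 4 FPKM in both cultures, while S100b was below 1 FPKM and Gfra3 was listed at 0. Of 14 macrophage markers with a row, 8 were listed at 0 in both cultures. The tables were made separately, so levels are compared only within a table. For 10 members, Irf7, Irf9, Ifi35, Dhx58, Parp9, Dtx3l, Eif2ak2, Oasl1, Irgm2 and Igtp, the locus is given for other rows too, and how reads were divided is uncertain.

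In the tumours, the treated library held less RNA of most interferon-stimulated genes. Of 38 measured members 34 (89.5%) were lower with NXD30001, against 52.7% of all genes compared, and the median difference was -0.35 against -0.03. The differences were mostly small: 6 members (15.8%) were at least 2-fold lower, against 6.93% of all genes, and 0 were 2-fold higher, against 7.32%. The authors' deposited table called 3 members lower (7.89%), namely Oasl1, Irf7 and Mx1, against 2.45% of all genes, and 0 higher, against 3.14%. All 38 members had at least 1 FPKM in both tumour libraries, so none entered through its level in a single library. Of the 13786 genes that passed in both, 3.97% were at least 2-fold lower and 4.27% 2-fold higher. Centred on the median of all genes, 32 of 38 were lower, because Irf1 and Irf9 then lay just above 0, and 6 were at least 2-fold lower, against 6.52% of all genes, and 0 higher, against 7.61%.

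**Figure D1:**
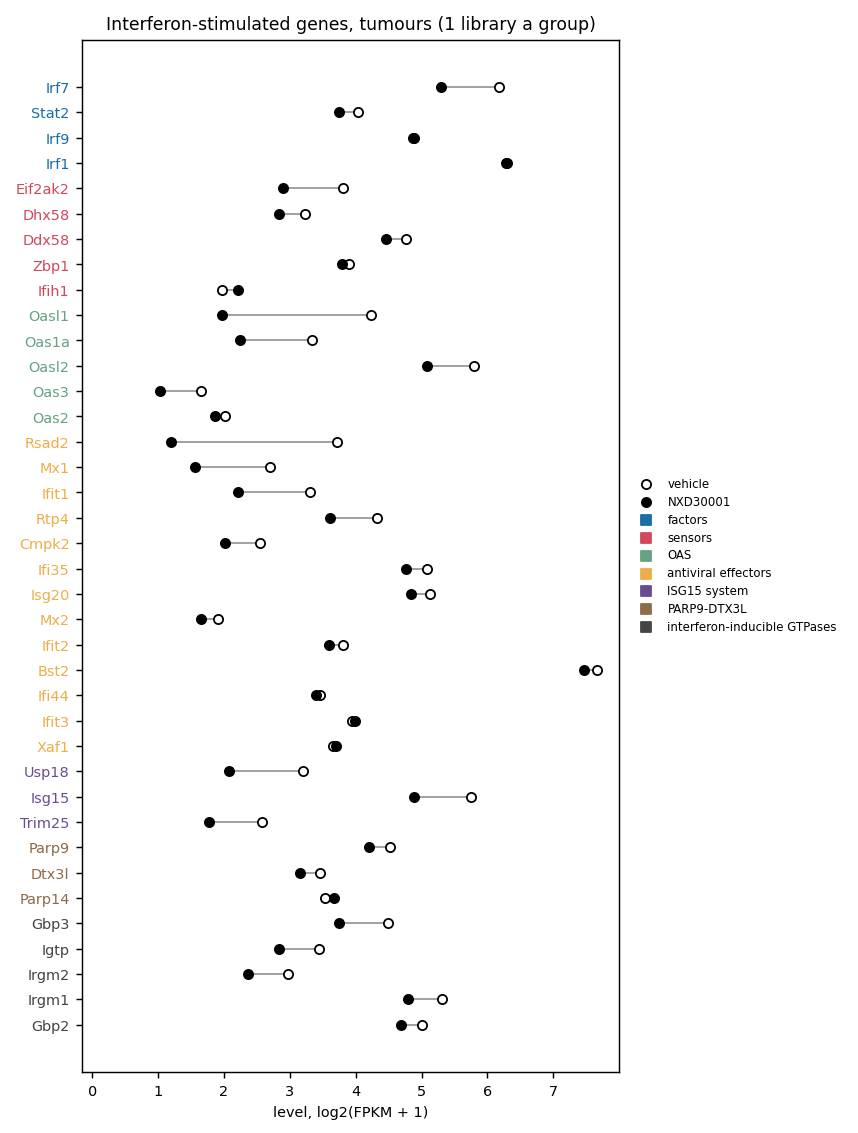
Levels of the 38 measured interferon-stimulated genes in the vehicle (open points) and NXD30001 (filled points) tumour library, 1 library each. The horizontal axis is log2(FPKM + 1) and gene names are coloured by role; 34 filled points lie left of their open point, with the longest lines for Rsad2 and Oasl1.

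Among the transcription factors, Irf7 stood apart from the other members of its group. Irf7, the factor that drives type I interferon genes (ENSMUSG00000025498, chromosome 7 from 148414683 to 148452380, mm9), was at 71.4 FPKM in the vehicle and 38.3 FPKM in the treated tumour (log2 difference -0.88, implied error 0.27). The other row at its locus is Phrf1. Stat2 and Irf9, partners in the ISRE-binding complex, stood at 15.4 and 12.4 FPKM (Stat2) and 28.6 and 28.2 FPKM (Irf9). Irf1, a factor best known as a target of interferon gamma, was at 77.7 and 76.8 FPKM. After Bst2, Irf1 was the most abundant member in the vehicle tumour, and its levels in the pair of libraries were nearly the same.

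The oligoadenylate synthetases, whose products switch on RNase L, were lower in all 5 cases, with a median of -0.72. Oasl1 (ENSMUSG00000041827, chromosome 5 from 115367327 to 115387924, mm9), a catalytically inactive relative known to restrain translation of Irf7, was at 17.8 and 2.90 FPKM (log2 difference -2.27, implied error 0.59). A second row, AC116500.2, has the same locus. Its neighbour Oasl2 was at 54.6 and 32.8 FPKM and Oas1a at 9.06 and 3.73 FPKM. Oas3 was at 2.15 and 1.05 FPKM, close to the minimum level, and Oas2 at 3.04 and 2.63 FPKM. For Oas2 the implied error was 2.14, so its difference of -0.16 is not resolved. Oasl1 was thus the member of this family with the largest difference, and Oasl2 the one with the highest level.

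The 13 antiviral effectors ranged from -2.53 to 0.05, with a median of -0.30. Rsad2, which encodes viperin, an enzyme that makes a chain-terminating nucleotide, was at 12.2 and 1.28 FPKM. This was the lowest difference of any member (-2.53), but the statistic in the authors' deposited table implies an error of 7.23 and the gene was not called. Cmpk2, the neighbouring gene whose kinase supplies nucleotides to viperin, was at 4.86 and 3.03 FPKM. Mx1, a GTPase that traps viral nucleocapsids (ENSMUSG00000000386, chromosome 16 from 97668642 to 97684514, mm9), was at 5.48 and 1.94 FPKM (log2 difference -1.14, implied error 0.46). Its paralogue Mx2 was at 2.76 and 2.15 FPKM. Members of the same family thus differed in how far apart the libraries were.

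The IFIT genes, which encode proteins that bind viral RNA ends, showed the same. Ifit1 was at 8.89 and 3.62 FPKM (log2 difference -1.10, implied error 0.46). Ifit2 was at 13.0 and 11.1 FPKM and Ifit3 at 14.4 and 14.9 FPKM, each within its implied error of no difference. Ifit1 and Ifit3 both carry a pair of ISRE matches, as printed above. Bst2, or tetherin, which holds budding virions at the cell surface, was the most abundant member at 201.2 and 175 FPKM. Rtp4 was at 18.9 and 11.3 FPKM, the exonuclease gene Isg20 at 34.1 and 27.6 FPKM, and Ifi35 at 32.8 and 26.1 FPKM. Ifi44 was at 10.02 and 9.58 FPKM. Xaf1, a gene that promotes cell death, was at 11.6 and 12.0 FPKM. Only Xaf1 and Ifit3 of these 13 were not lower in the treated tumour.

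The ISG15 system was lower at each of its 3 measured genes. Isg15 itself was at 52.6 and 28.4 FPKM (log2 difference -0.87, implied error 0.43). Usp18, the protease that removes ISG15 from proteins and restrains the type I receptor, was at 8.21 and 3.23 FPKM. Trim25, a ubiquitin ligase that acts on RIG-I, was at 4.95 and 2.43 FPKM. Herc6, the ISG15 ligase of the mouse, had no row of that symbol. A row with its Ensembl gene ID, listed under the older symbol Herc5, was at 5.42 and 4.49 FPKM (log2 difference -0.22, implied error 0.44).

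The 5 sensors of foreign nucleic acid had a median of -0.31. Eif2ak2, the kinase PKR that halts translation on meeting double-stranded RNA, was at 13.0 and 6.44 FPKM (log2 difference -0.91, implied error 0.36), at a locus given for other rows too. Ddx58 (RIG-I) was at 26.1 and 20.9 FPKM and Dhx58 (LGP2) at 8.38 and 6.17 FPKM. Ifih1 (MDA5) was at 2.91 and 3.65 FPKM, the highest difference of any member at 0.25, with an implied error of 0.40. Zbp1, a sensor of Z-form nucleic acid, was at 13.9 and 12.9 FPKM. The differences of Dhx58, Ifih1 and Zbp1 were smaller than their implied errors, and that of Ddx58 (-0.31) was about the size of its own (0.31).

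All 5 interferon-inducible GTPases were lower, from -0.75 to -0.31. Gbp3 was at 21.5 and 12.4 FPKM and Gbp2 at 31.0 and 24.8 FPKM. Irgm1, a regulator of the other immunity-related GTPases, was at 38.7 and 26.8 FPKM. Irgm2 was at 6.81 and 4.17 FPKM, and Igtp at 9.89 and 6.15 FPKM. They are close relatives given the same locus, so the split of reads between them is uncertain. Of the PARP9-DTX3L group, a mono-ADP-ribosyltransferase with its ubiquitin ligase partner, Parp9 was at 22.1 and 17.5 FPKM and Dtx3l at 9.97 and 7.91 FPKM, again at a single shared locus. Parp14 was at 10.5 and 11.7 FPKM.

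**Figure D2:**
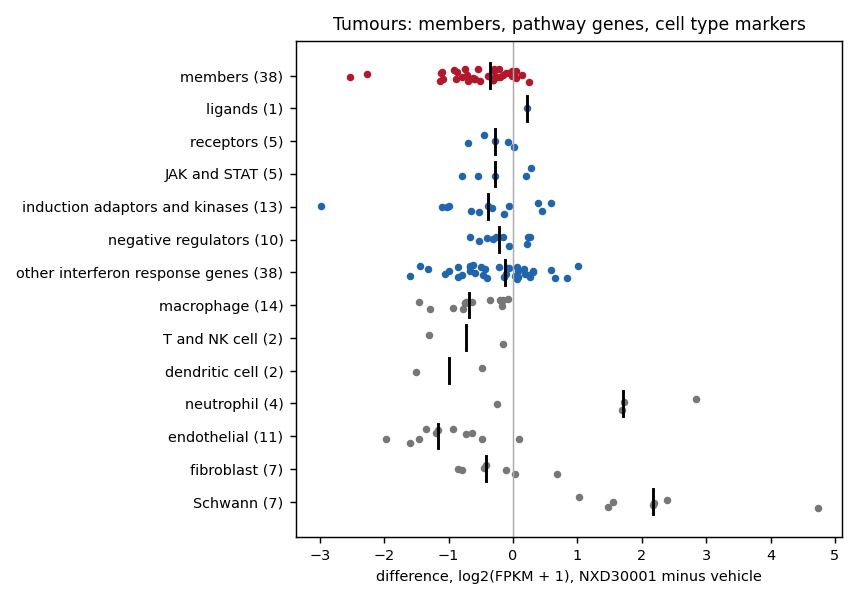
Differences in log2(FPKM + 1), NXD30001 minus vehicle tumour, for the members (red), other genes of the interferon pathway (blue) and cell type markers (grey), 1 point per measured gene, with a bar at each list's median and the number of genes in brackets. The members lie around -0.35, macrophage markers around -0.68, endothelial markers around -1.17 and Schwann markers around 2.18.

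Other genes of the pathway give the setting of these values in the tumours. Of 12 interferon ligand genes only Ifnz reached 1 FPKM, at 0.869 and 1.16 FPKM, and 9 were listed at 0 in both libraries. Of the receptor genes, Ifnar1 was at 27.0 and 16.2 FPKM (log2 difference -0.70, implied error 0.31), and Ifnar2 at 67.8 and 49.1 FPKM. The interferon gamma receptor genes were nearly level, with Ifngr1 at 37.8 and 38.3 FPKM and Ifngr2 at 32.0 and 30.4 FPKM. Il10rb, shared with interleukin receptors, was at 39.1 and 32.2 FPKM.

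The kinase genes lay on both sides of 0, and Jak1, Tyk2 and Stat3 have loci given for other rows too. Jak1 was at 82.5 and 56.1 FPKM, Jak2 at 12.9 and 10.4 FPKM and Tyk2 at 14.0 and 17.2 FPKM, while Stat3 was at 133 and 153 FPKM. Among 13 adaptors and kinases of interferon induction, 10 were lower and 3 at least 2-fold lower, against 52.7% and 6.93% of all genes. Tlr7, an endosomal receptor for single-stranded RNA, was at 29.99 and 2.92 FPKM (log2 difference -2.98, implied error 0.67). The authors' deposited table called 2 of the 13 lower, Tlr7 and Tlr9 (1.30 and 0.156 FPKM), against 2.45% of all genes. However, Tlr9 had passed the minimum through the vehicle library alone. Irf8, a myeloid and dendritic cell factor, was at 12.3 and 5.18 FPKM and Ikbke at 7.65 and 3.26 FPKM.

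Negative regulators (10 measured) had a median of -0.21, with Ptpn11 at 92.1 and 57.5 FPKM, Trex1 at 29.5 and 20.2 FPKM, Samhd1 at 55.7 and 41.8 FPKM and Ptpn6 at 15.4 and 12.2 FPKM. A wider list of 45 interferon response genes that are not members had 38 measured, of which 22 were lower and 16 higher, with a median of -0.12. Of all genes compared, 52.7% were lower, 6.93% at least 2-fold lower and 7.32% 2-fold higher, with a median of -0.03. From the list, Ddx60, Gbp1, Gbp5 and Phf11 had passed the minimum through the vehicle library alone, and Ifi205 through the treated one alone. In that list 4 genes were at least 2-fold lower, namely Tgtp1 (8.37 and 2.11 FPKM), Tgtp2 (7.24 and 2.04 FPKM), Gbp1 (1.82 and 0.125 FPKM) and Epsti1 (4.19 and 1.50 FPKM). The pair Tgtp1 and Tgtp2 are near-identical copies at a locus of several rows, and their levels are uncertain. The list held a single gene at least 2-fold higher, Ifi203 (named with its values known), at 10.7 and 22.6 FPKM, at a locus given for another row too. The authors' deposited table called 2 of the 38 lower, against 2.45% of all genes, and 1, Ifi203, higher, against 3.14%. Those called lower were Gbp1 and Lgals3bp, the latter at 70.4 and 38.4 FPKM (log2 difference -0.86, implied error 0.27). The wider list was thus more evenly divided than the members, and its median lay nearer to that of all genes.

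Markers listed for several cell types were also lower in the treated tumour. Of all genes compared, 52.7% were lower. Of 7 fibroblast markers 5 were lower (median -0.41), with sums of 2983 and 2281 FPKM. Most of these sums was Col1a1 (1576 and 1155 FPKM) and Col1a2 (892 and 823 FPKM). The cultured line expressed both too, at 346 and 293 FPKM with DMSO, so the sums are not particular to host cells. All 14 macrophage markers were lower in the treated library (median -0.68), with summed levels of 2205 and 1744 FPKM. Most of these sums was Lyz2 (712 and 558 FPKM), C1qa (491 and 434 FPKM), C1qb (279 and 247 FPKM) and C1qc (263 and 237 FPKM). The differences of Lyz2, C1qa, C1qb, C1qc, Aif1 and Itgam were smaller than their implied errors. The authors' deposited table called 3 of the 14 lower, against 2.45% of all genes. Of 11 endothelial markers 10 were lower (median -1.17), with sums of 105 and 46.4 FPKM. T and NK cell markers were near 0, with 2 of 14 measured, sums of 4.22 and 1.69 FPKM and Cd2, Cd3e, Cd8a, Cd8b1 and Klrb1c listed at 0. Dendritic cell markers (2 of 9 measured) summed to 13.2 and 5.02 FPKM, with the plasmacytoid marker Siglech at 0 in both libraries. The 2 measured, Zbtb46 and Cd83, are not particular to host cells. In the cultured line Zbtb46 was at 5.46 and 6.59 FPKM, and Cd83 at 2.69 FPKM with DMSO. B and plasma cell markers had 0 of 6 measured, and Ms4a1 was at 0. Neutrophil markers summed to 11.8 and 52.1 FPKM (4 of 6 measured, Ly6g at 0). Schwann markers were higher (7 of 9 measured, median 2.18), with sums of 123 and 480.3 FPKM. The part of these cell types in the lower interferon-stimulated genes was not tested, and in bulk tumour RNA fewer cells of a type and less RNA per cell cannot be told apart.

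In culture fewer of the members reached the minimum level, and most of those measured were lower with NXD30001. Of 37 members with status OK, 21 reached 1 FPKM in the DMSO library and 14 in the treated one. Oas1a, Oas2, Oas3, Oasl1, Mx2 and Trim25 were listed at 0 in both libraries, and Irf9 had a failed estimate. Of the 22 measured, 18 (81.8%) were lower, against 59.4% of all genes compared, and the median difference was -1.22 against -0.25. At least a 2-fold lower level was found for 12 members (54.5%), against 24.8% of all genes, and a 2-fold higher level for 0, against 12.6%. The authors' deposited table called 6 members lower (27.3%), against 7.14% of all genes, and 0 higher, against 2.75%.

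The level minimum shaped these counts, since 8 members (Ifit1, Oasl2, Ifih1, Ifi44, Irgm1, Parp14, Dtx3l and Cmpk2) passed it through the DMSO library alone and had to be lower. Of these 8, 6 were at least 2-fold lower, against 70.2% of the 1575 genes that passed in that way, and 3 of the 6 called members (Parp14, Dtx3l and Cmpk2) are among them. Among the 13 members at 1 FPKM or more in both libraries, 10 were lower (76.9%), against 57.8% of 10309 genes that passed in both. Of the 13, 6 were at least 2-fold lower (46.2%), against 19.8%, and 3 were called lower (23.1%), against 4.79%. Centred on the median of all genes, 11 of 22 were at least 2-fold lower, against 18.4% of all genes, and 0 were 2-fold higher, against 17.8%. On that scale 17 were lower, with Ddx58 then above 0. Just inside the minimum stood Dhx58 (0.409 and 1.02 FPKM) and Irgm1 (1.05 and 0.410 FPKM), and just outside it Irgm2 (0.499 and 0.654 FPKM) and Bst2 (0.572 and 0.132 FPKM).

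**Figure D3:**
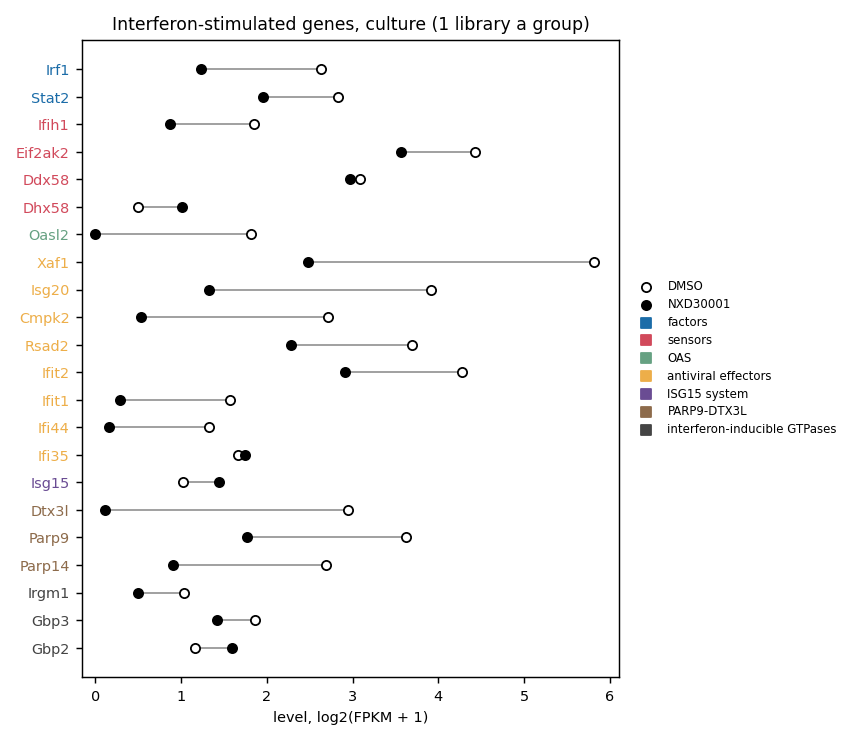
Levels of the 22 interferon-stimulated genes measured in culture, in the DMSO (open points) and NXD30001 (filled points) library, 1 library each, on a log2(FPKM + 1) axis with names coloured by role. The longest lines are those of Xaf1, Dtx3l and Isg20, and 4 filled points (Dhx58, Ifi35, Isg15, Gbp2) lie right of their open point.

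The antiviral effectors measured in culture included Xaf1, the member with the lowest difference there. With a pseudocount of 0.1 or none, Dtx3l (-5.24 and -6.39) lay below Xaf1 (-3.56 and -3.59). Xaf1 (ENSMUSG00000040483, chromosome 11 from 72115131 to 72127235, mm9) was the most abundant member with DMSO at 55.1 FPKM and was at 4.58 FPKM in the treated culture (log2 difference -3.33, implied error 0.56). Isg20 (ENSMUSG00000039236, chromosome 7 from 86058310 to 86065248, mm9) was at 14.0 and 1.50 FPKM (log2 difference -2.58, implied error 0.71). Cmpk2 was at 5.57 and 0.449 FPKM and its neighbour Rsad2 at 11.9 and 3.87 FPKM. Xaf1, Isg20 and Cmpk2 were called in the authors' deposited table and Rsad2 was not. Of the 8 effectors measured, 7 were at least 2-fold lower, but Cmpk2, Ifit1 and Ifi44 had passed through the DMSO library alone.

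The IFIT genes were unequal in level. Ifit2 was at 18.3 and 6.53 FPKM (log2 difference -1.36, implied error 0.80), and Ifit1 at 1.97 and 0.220 FPKM. Ifit3 did not reach the minimum, at 0.0925 and 0.421 FPKM. Ifi44 was at 1.50 and 0.121 FPKM and Ifi35 at 2.17 and 2.34 FPKM. Mx1 and Rtp4 were at 0.0511 and 0.174 FPKM in the DMSO library and listed at 0 in the treated one. Mx1, Rtp4, Ifit3 and Bst2 thus give no difference in culture.

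The authors' deposited table called all 3 genes of the PARP9-DTX3L group lower, of which Dtx3l and Parp14 had passed the minimum through the DMSO library alone. Dtx3l was at 6.69 and 0.0797 FPKM (log2 difference -2.83, implied error 1.09). Parp9, which shares the locus chromosome 16 from 35926597 to 35981225 (mm9) with Dtx3l, was at 11.3 and 2.41 FPKM (log2 difference -1.85, implied error 0.58). Parp14, at a locus of its own nearby, was at 5.43 and 0.871 FPKM (log2 difference -1.78, implied error 0.70). Reads may be split between Parp9 and Dtx3l, while Parp14 does not share its row.

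In culture the 2 factors measured had a median of -1.14 and the 4 sensors -0.49, against -1.38 for the antiviral effectors. Irf1 was at 5.19 and 1.35 FPKM (log2 difference -1.40, implied error 0.73), and Stat2 at 6.13 and 2.87 FPKM. Irf7 was below the minimum, at 0.468 and 0.318 FPKM. Eif2ak2 was at 20.5 and 10.9 FPKM and was the most abundant member of the treated library. Ddx58 was at 7.48 and 6.84 FPKM, Ifih1 at 2.60 and 0.836 FPKM and Dhx58 at 0.409 and 1.02 FPKM. Zbp1 was at 0.362 FPKM in the DMSO library and listed at 0 in the treated one. None of the factors or sensors was called.

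Of the OAS family only Oasl2 was measured, at 2.53 FPKM in the DMSO library and listed at 0 in the treated one. Isg15 was at 1.03 and 1.72 FPKM (log2 difference 0.42, implied error 1.28), and Usp18 at 0.182 and 0.0436 FPKM. The row with the gene ID of Herc6 was at 8.27 and 1.30 FPKM (log2 difference -2.01, implied error 0.84), and was called lower. Among the GTPases Gbp3 was at 2.64 and 1.67 FPKM, Gbp2 at 1.23 and 2.02 FPKM and Irgm1 at 1.05 and 0.410 FPKM, while Igtp was at 0.305 and 0.169 FPKM. None of these GTPases was called.

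Upstream of the members in culture, all 12 interferon ligand genes lay below 1 FPKM and 11 of them were listed at 0 in both libraries. The receptor genes were expressed, with Ifnar2 at 163 and 113 FPKM, Ifnar1 at 23.3 and 14.6 FPKM, Ifngr1 at 30.1 and 21.0 FPKM and Ifngr2 at 6.94 and 1.86 FPKM. Il10rb was at 4.76 and 6.70 FPKM. Jak1 was at 69.9 and 74.0 FPKM and Jak2 at 6.24 and 3.77 FPKM. None of these receptor and kinase genes was called in culture.

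Of 7 measured adaptors and kinases of induction, 6 were lower, against 59.4% of all genes compared. Tlr3, Traf3 and Tmem173 had passed the minimum through the DMSO library alone and had to be lower. Tlr3, an endosomal receptor for double-stranded RNA, was at 2.31 and 0.211 FPKM and was called, Traf3 at 3.67 and 0.935 FPKM, Tmem173 (STING) at 2.94 and 0.989 FPKM and Ticam1 at 2.50 and 1.13 FPKM. The 7 negative regulators had a median of -0.12 and went apart. Samhd1, a nucleotide hydrolase that restricts viral replication, was at 20.1 and 144 FPKM (log2 difference 2.78, implied error 0.42), and was called higher. Ptpn6, a phosphatase, was at 2.55 and 0.144 FPKM and was called lower. Like Trex1, it had passed the minimum through the DMSO library alone. The exonuclease gene Trex1 was at 5.70 and 0.0819 FPKM, with an implied error of 95.3 at a locus given for another row too, and Irf2 was at 13.2 and 8.79 FPKM.

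In the wider list of interferon response genes 14 were measured in culture, with 12 lower, 9 at least 2-fold lower and a median of -1.50. Of all genes compared, 59.4% were lower and 24.8% at least 2-fold lower, with a median of -0.25. Slfn9, Uba7 and Ube2l6 had passed the minimum through the DMSO library alone and had to be lower. Samd9l was at 129 and 15.9 FPKM (log2 difference -2.94, implied error 0.75). Slfn9 was at 27.5 and 0.792 FPKM and Gbp9 at 21.0 and 2.19 FPKM, and the authors' deposited table called these 3 genes lower. In all it called 5 of the 14 lower, against 7.14% of all genes, and 0 higher, against 2.75%. The others called lower were Ifi27l1 (32.3 and 7.39 FPKM) and Uba7 (1.63 and 0.111 FPKM). Gbp6 was at 16.0 and 2.44 FPKM and was not called. In culture most measured genes of this list were thus lower, as were most measured members.

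**Figure D4:**
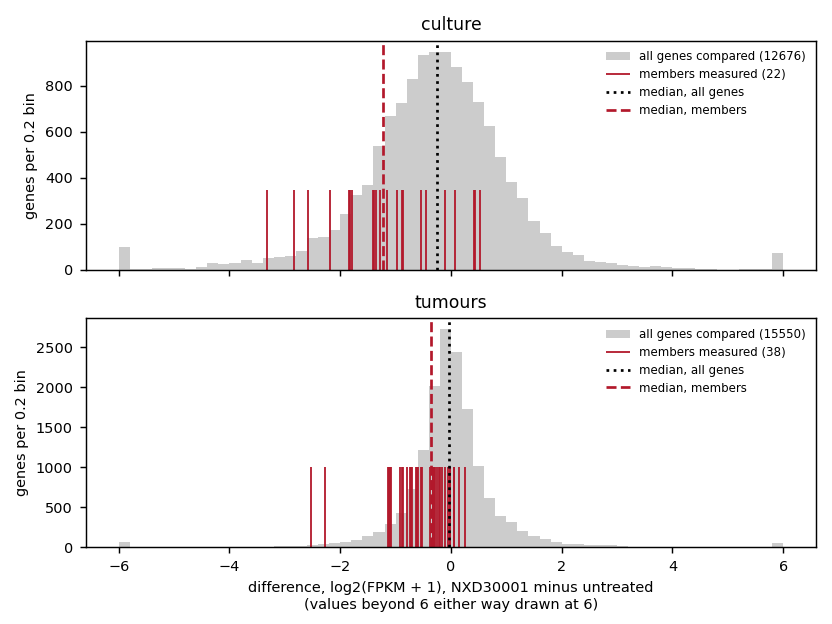
Number of genes per 0.2 bin of difference in log2(FPKM + 1), NXD30001 minus untreated, for all genes compared in culture (upper) and tumours (lower), with the measured members as red lines, the median of all genes dotted and that of the members dashed. The member medians are -1.22 in culture and -0.35 in tumours, and those of all genes -0.25 and -0.03.

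All 22 members measured in culture were also measured in the tumours. Of these, 15 were lower with NXD30001 in both tables, 3 were lower in culture and higher in the tumours, 4 were the reverse and 0 were higher in both. Of all 11559 genes compared in both tables, 31.6% were lower in both, against 68.2% of the members, and 49.0% went opposite ways, against 31.8%. Since most members were lower in each table, a large share lower in both follows from the counts in each. Of the 15, Ifit1, Oasl2, Ifi44, Irgm1, Dtx3l and Cmpk2 had passed in culture through the DMSO library alone and had to be lower there. Over the 22 members the differences had a Pearson r of -0.12 and a Spearman rho of -0.27, given as a description across genes, which are not replicates. Rsad2 and Ifit1 (9.09%) were at least 2-fold lower in both, against 1.52% of all genes. Neither was called in either table, Ifit1 had to be lower in culture, and Rsad2 had an implied error of 7.23 in the tumours. Most of the genes with a large difference in 1 table had a small one in the other. Xaf1 was -3.33 in culture and 0.05 in the tumours, Isg20 -2.58 and -0.30, Dtx3l -2.83 and -0.30, and Parp14 -1.78 and 0.14. Oasl1 and Mx1, both called lower in the tumours, were at 0 or near it in culture and give no difference there. The dose, the exposure and the cells sampled differ between the tables, and their difference was not tested.

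**Figure D5:**
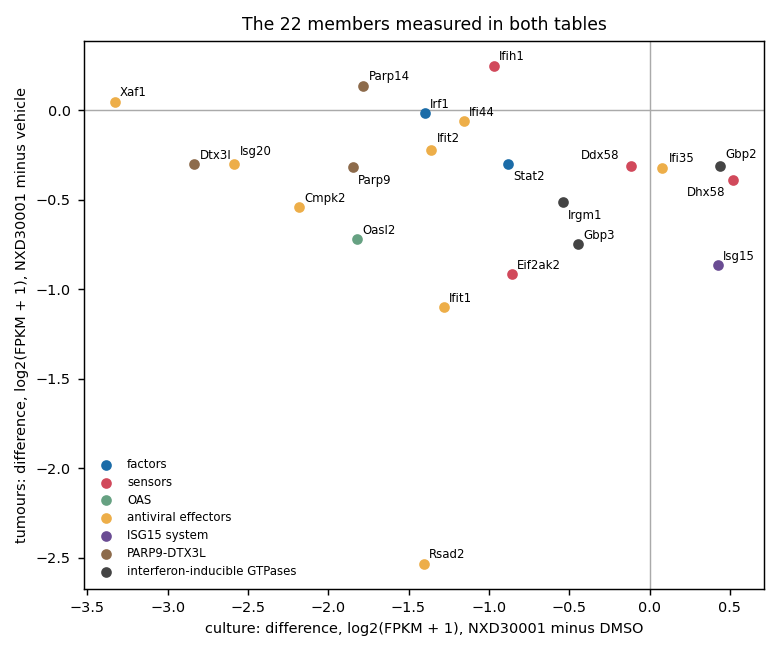
Difference in log2(FPKM + 1) in culture (horizontal, NXD30001 minus DMSO) against that in the tumours (vertical, NXD30001 minus vehicle) for the 22 members measured in both, coloured by role. In the lower left quadrant lie 15 genes, with Rsad2 lowest in the tumours and Xaf1 lowest in culture.

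The medians of the members with and without the ISRE letters stood in opposite order in the 2 tables. In the tumours the 13 genes with the ISRE letters had a median difference of -0.61, with 12 lower, and the 16 measured genes whose windows lack them -0.30, with 14 lower. In culture the 7 measured genes with the letters had a median of -0.54 and the 12 without -1.38. Of the 12, Oasl2, Ifih1, Ifi44, Dtx3l and Cmpk2 had passed through the DMSO library alone and had to be lower. The same held for Ifit1 and Irgm1 of the 7. The culture medians thus rest partly on the minimum level, and on fewer genes than those of the tumours. Xaf1, Isg20, Dtx3l and Cmpk2, the lowest in culture, are among the genes with no ISRE match in their windows. Of the genes printed above, Ifit3, with a pair of matches, was level in the tumours, while Ifit1, also with a pair, was at least 2-fold lower. No match says only that these letters are not in the window.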

How the data were processed

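RNA was measured in 2 cultures and 2 tumours, each a single library. Per the submitters' processing notes, CASAVA, TopHat 1.2.0, Cufflinks 1.0.2 and Cuffdiff were used with build mm9. Levels are FPKM as deposited by the authors, and no source used here gives the fragments per library. The authors' deposited statistic and q-value served as scores: calls follow the authors' column, and the natural log fold divided by the statistic gave the implied error on the log2 scale. That error belongs to the ratio without a pseudocount.

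Differences were computed in Python 3.11.15 with pandas 2.3.3 as log2(FPKM + 1), treated minus untreated, and genes past 2-fold were counted; the functions were tested on simulated data. Rows of status FAIL or LOWDATA were left out. The members and lists were chosen with earlier results of these data known. Members were matched by symbol, each was named or counted, and of other pathway genes all ligands, receptors, JAK and STAT genes (except some not reported here) and up to 4 of each further list with the largest difference were named. Loci are in mm9 from the authors' tables, with 1 added to each start, because end minus start equalled the GENCODE M21 gene length for 10580 of 19955 single-gene loci and the length less 1 for 268. Relative depth came from genes whose implied error is that of 1 fragment in each library. Promoters are RefSeq windows on GRCm38.p6, another build than that of the levels, of which the 50 bases after the gene start were not searched. No source used here says whether libraries kept strand.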

Additional observations from a re-analysis of the deposited data

Results flagged for a closer look

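For 7 of the 22 members measured in both tables the libraries went opposite ways in culture and in tumours (31.8%, against 49.0% of the 11559 genes compared in both). In each of the 7 the difference on at least 1 side was within its implied error. The difference in culture less that in tumours was -3.38 for Xaf1, -1.92 for Parp14 and -1.22 for Ifih1, which were lower with NXD30001 in culture and not in the tumours. It was 1.29 for Isg15, 0.91 for Dhx58, 0.75 for Gbp2 and 0.40 for Ifi35, which were higher in culture and lower in the tumours. The contrast between culture and tumours was not tested, since each group has 1 library, and dose and exposure differ between the tables. Of these 7 genes, Xaf1 and Parp14 were called in the authors' deposited table, both in culture. Parp14 and Ifih1 had passed in culture through the DMSO library alone and Dhx58 through the treated one alone, which fixed their direction there.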

How the results depend on the processing

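Across 8 other settings and 1 chosen after seeing the data (the row with the Herc6 gene ID), the median difference of the members stayed below 0 in both tables. In culture the median went from -1.22 to -0.55 with a pseudocount of 5 and to -0.54 with no minimum level, which adds members near 0. The count of members at least 2-fold lower in culture went from 12 to 5 with a pseudocount of 5, and that in tumours from 6 to 2. The count at least 2-fold higher in culture went from 0 to 1 with a pseudocount of 0.1 and with none, in each case from Dhx58. Low levels compress under a larger pseudocount by construction. The other 48 summary values lay within 1.5 times of the reported ones. Of 508 values of single members, 63 (49 in culture) differed from the reported one by over 0.1 and over 1 part in 3. Signs changed for 3 members on centring, namely Ddx58 in culture and Irf1 and Irf9 in the tumours. Dtx3l in culture went from -2.83 to -5.24 with a pseudocount of 0.1, Oasl2 from -1.82 to -4.72 and Ifi44 from -1.16 to -2.85. Leaving out a replicate was not run, since each group has 1. No paired analysis was possible because each group has a single library. In culture 16 of the 38 members with a row did not reach 1 FPKM or had no estimate, so for these only the levels are given.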
